A study of Homo sapiens with 31 samples.

Results

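The genes described here are 39 genes of the G1/S transition and of DNA replication, taken by symbol from a named list. All 39 were found in both RNA-seq sets of a study of PANC-1, an established pancreatic ductal adenocarcinoma cell line. All 39 passed the filter on low counts, among 17240 genes tested of 57992 in the steady-state set and 17715 of 43682 in the actinomycin D set. The steady-state set held 3 libraries labelled KHSRP knockout (KO) and 3 labelled NC with the genotype WT. Another 5 libraries of the series, made by cross-linking and immunoprecipitation, were not used here. The actinomycin D set held 20 libraries, 2 for each of the labels KO and NC at 0, 2, 4, 6 and 8 h under this inhibitor of transcription. KHSRP is an RNA-binding protein studied as a reader of m6A and as a regulator of mRNA decay, and the second set was made to examine mRNA lifetime. The labels do not give the knockout method, the number of clones, what NC stands for, or whether replicates came from separate cultures. The p-values therefore cover no more than the variation among the libraries at hand, part or all of which may be technical.

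Before S phase, ORC, CDC6 and CDT1 load the MCM2 to MCM7 helicase onto replication origins, a step called licensing. Cyclin E with its kinase partner and the E2F transcription factors then drive the transition into S phase, when CDC45 and GINS join the helicase and the polymerases, the sliding clamp PCNA and its loader RFC copy the DNA. Transcripts of this machinery are abundant in cycling cells and low in resting cells. In bulk RNA, fewer cells in S phase and less RNA per cell cannot be told apart.

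The targeted gene was low in every KO library but not at 0. At steady state KHSRP had 10.6, 9.89 and 9.49 CPM (read counts scaled to a common library total, with factors from the trimmed mean of M-values, TMM) in KO, against 64.4, 65.7 and 64.9 CPM in NC (log2 change -2.70, SE 0.08, edgeR adjusted p = 4.52e-07). In the actinomycin D set KHSRP ranged over 134.4 to 156.5 CPM in the 10 libraries labelled KO and over 375.2 to 459.5 CPM in the 10 labelled NC. CDKN2A, a tumour suppressor gene that PANC-1 is known to have lost by deletion, had 0 counts in each of the 10 actinomycin D libraries labelled KO and 2728 to 5476 counts in each of the 10 labelled NC. It had 6 counts in each steady-state KO library and 0 in each NC library. The actinomycin D libraries labelled NC therefore go against the label PANC-1 in this gene. In that set a difference between the genotype labels and a difference between cell sources cannot be told apart; KO and NC of that set below mean the libraries so labelled. No comparison of the labels in that set can be made without these libraries; the steady-state comparison does not use them.

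Each steady-state library held between 33706181 and 43278138 counts. Each actinomycin D library held between 19177934 and 25768060. Of 8 epithelial and carcinoma markers such as KRT8 and KRT18, none was at 0 in all libraries of a label, but in the actinomycin D set they went in opposite directions between the labels. The keratin gene KRT19 ranged over 371.7 to 415 CPM in the 10 libraries labelled KO and over 0 to 0.6725 CPM in the 10 labelled NC. KRT7 ranged over 8.606 to 19.09 CPM in KO, against 541.4 to 960.8 CPM in NC. EPCAM was at 4.699 to 9.847 CPM in KO, against 0.2236 to 1.159 CPM in NC, and CDH1 at 1.394 to 3.834 CPM in KO, against 0.1793 to 0.8466 CPM in NC. The summed level of the 8 at steady state was 6450 to 7630 CPM in KO, against 7520 to 8190 CPM in NC. In the actinomycin D set it was 4090 to 6790 CPM in KO, against 3180 to 4850 CPM in NC. The 6 immune markers summed to 113 to 249 CPM in KO and 10.4 to 15.2 CPM in NC in the actinomycin D set, nearly all of it CD68. The defining immune marker PTPRC was at 0 in all 10 of these KO libraries. Fibroblast markers summed to 32.9 to 62.7 CPM in KO and 30.8 to 39.9 CPM in NC there. Endothelial markers summed to 7.37 to 11.3 CPM in KO, against 2.20 to 4.59 CPM in NC, and the 8 acinar and endocrine markers summed to at most 0.484 CPM in any library. At steady state the immune sum was 93.1 to 118 CPM in KO and 64.4 to 67.5 CPM in NC. The fibroblast sum was 11.6 to 12.8 CPM in KO, against 10.9 to 12.1 CPM in NC, with COL1A2 at 0 in all 6 libraries. The endothelial sum was 4.37 to 4.75 CPM in KO, against 2.83 to 4.02 CPM in NC. Their part in the results below was not tested.

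At steady state most of the 39 genes were higher in KO. Of the 39 genes, 23 were called higher, 3 lower and 13 neither (edgeR quasi-likelihood test, adjusted p below 0.05), where 24.4% of all genes tested were called higher and 26.3% lower. Every KO library lay above every NC library in 26 of the 39 genes (30.4% of all genes tested) and below in 3 (29.6%). Their median log2 change was 0.40, and that of all genes tested was 0.02. The rises were modest, the largest being 0.77 on the log2 scale. The largest difference in either direction was a fall, of the clamp loader gene RFC3.

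Per length of transcript, the genes covered a wide range of levels. PCNA, the sliding clamp gene, was the most abundant at 110.8 ± 18.6 TPM in KO and 97.3 ± 1.36 TPM in NC. Next came TYMS, thymidylate synthase, at 87.0 ± 4.95 TPM in KO and 54.2 ± 2.78 TPM in NC (SD, n = 3 each). MCM7 was at 83.4 ± 8.19 TPM in KO and 42.5 ± 4.11 TPM in NC. GINS4 was the least abundant in NC, at 1.71 ± 0.215 TPM in KO and 0.870 ± 0.250 TPM in NC, and in NC it did not stand clear of CHAF1A and CCNE2 beyond their spread. Between 67.2% and 75.0% of the deposited TPM fell on 6 small structural RNAs such as RN7SL1. The log2 ratio of TPM between KO and NC had a median of 0.32 over 14196 genes, so TPM is used here for levels between genes and not for changes.

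Among the 10 licensing genes, 7 rose, 1 fell and 2 were not called (median log2 change 0.42). MCM7, a subunit of the helicase (hg19, chr7:99690351-99699020, minus strand), had 437, 431 and 444 CPM in KO, against 270, 284 and 250 CPM in NC. CDT1, which brings the helicase to origins (chr16:88870197-88875666, plus strand), had 27.0, 28.5 and 26.7 CPM in KO, against 16.4, 17.3 and 17.6 CPM in NC. Every KO library lay above every NC library in both genes, and the log2 changes were 0.71 (SE 0.07, adjusted p = 7.1e-05) for MCM7 and 0.68 (SE 0.08, adjusted p = 0.000146) for CDT1. MCM2 (0.37), MCM5 (0.56), CDC6 (0.28), a helicase loading factor, and the origin recognition genes ORC1 (0.58) and ORC6 (0.46) rose as well. MCM6, a further helicase subunit, had 102, 85.3 and 83.3 CPM in KO, against 109, 109 and 110 CPM in NC, and fell (log2 change -0.28, SE 0.09, adjusted p = 0.0255). KO replicate 1 was the nearest to NC in MCM6, and this call was lost when any of 4 of the 6 libraries was left out. The helicase subunits were thus called in both directions, and MCM3 (0.18, adjusted p = 0.0546) and MCM4 (-0.04, adjusted p = 0.689) were not called.

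Of the 6 genes of helicase activation, 4 rose and none fell. GINS4, which codes for a subunit of the GINS complex, had 8.72, 10.1 and 9.70 CPM in KO, against 6.25, 6.203 and 5.26 CPM in NC (log2 change 0.69, SE 0.11, adjusted p = 0.000894). GINS1 (0.57), GINS2 (0.41) and CDC45 (0.55), the helicase cofactor, rose too, with all KO libraries above all NC libraries. GINS3 stood at 0.12 (adjusted p = 0.384). MCM10, a replication initiation factor, stood at -0.36 (adjusted p = 0.0748), with 31.4, 21.3 and 19.9 CPM in KO and 31.9, 30.1 and 30.8 CPM in NC, so that only KO replicate 1 was at the NC level.

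The 11 genes of polymerases, primase, clamp and clamp loader were divided, with 4 higher, 2 lower and 5 not called. RFC3, a subunit of the RFC clamp loader (chr13:34392286-34540695, plus strand), had 23.2, 17.9 and 21.4 CPM in KO, against 53.5, 51.6 and 54.2 CPM in NC. Its highest KO library was below every NC library, and the log2 change was -1.35 (SE 0.10, adjusted p = 2.4e-05). Its partner RFC2 rose, with 49.6, 49.2 and 51.2 CPM in KO and 32.4, 32.3 and 31.7 CPM in NC (log2 change 0.64, SE 0.07, adjusted p = 0.000119). The subunits RFC4 (0.18, adjusted p = 0.245) and RFC5 (0.17, adjusted p = 0.0782) were not called. The polymerase alpha genes also parted. POLA1, its catalytic subunit (chrX:24712035-25015103, plus strand), had 10.7, 8.15 and 9.68 CPM in KO, against 14.9, 14.8 and 14.6 CPM in NC (log2 change -0.64, SE 0.11, adjusted p = 0.00112). Its regulatory partner POLA2 rose (0.25, SE 0.08, adjusted p = 0.0284). The catalytic subunits of the other replicative polymerases rose, POLD1 by 0.63 (100.4, 97.0 and 104 CPM in KO, against 60.4, 73.4 and 60.4 CPM in NC) and POLE by 0.58. POLE2 (-0.30), PRIM1 (0.14), a primase subunit, and PCNA (-0.07) were not called. The call of POLA2 was lost in 5 of the 6 fits that each left out a library.

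Of the 6 genes of Okazaki fragment joining and chromatin assembly, 4 rose and none fell. CHAF1A, the large subunit of the histone chaperone CAF-1 (chr19:4402637-4443394, plus strand), had 16.7, 16.8 and 16.9 CPM in KO, against 9.81, 10.3 and 9.30 CPM in NC. The KO libraries agreed within 0.136 CPM (SD) and lay above all NC libraries, at a log2 change of 0.77 (SE 0.09, adjusted p = 0.000113), the largest rise of the 39 genes. CHAF1B (0.63), its partner in CAF-1, UHRF1 (0.62), which guides maintenance of DNA methylation, and LIG1 (0.52), the ligase that seals Okazaki fragments, rose too. FEN1, the flap nuclease that trims those fragments, had 19.02, 32.3 and 33.2 CPM in KO, against 34.6, 32.9 and 33.2 CPM in NC, with KO replicate 1 apart from all other libraries and no call (log2 change -0.25, SE 0.18, adjusted p = 0.265). SLBP, the histone mRNA stem-loop binding protein gene, was at 0.19 (adjusted p = 0.0505).

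In nucleotide supply RRM2, the regulated subunit of ribonucleotide reductase, rose by 0.61 and TYMS by 0.45, while RRM1, the large subunit, was at 0.04 (adjusted p = 0.736). Of the G1/S regulators, E2F1, a transcription factor of the transition, rose by 0.59 and CCNE1, cyclin E1, by 0.40. CCNE2, cyclin E2, was at -0.06 (SE 0.23, adjusted p = 0.844). Its level was 8.95, 5.83 and 5.05 CPM in KO and 8.79, 5.80 and 6.03 CPM in NC, so that the groups overlapped.

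**Figure D1:**
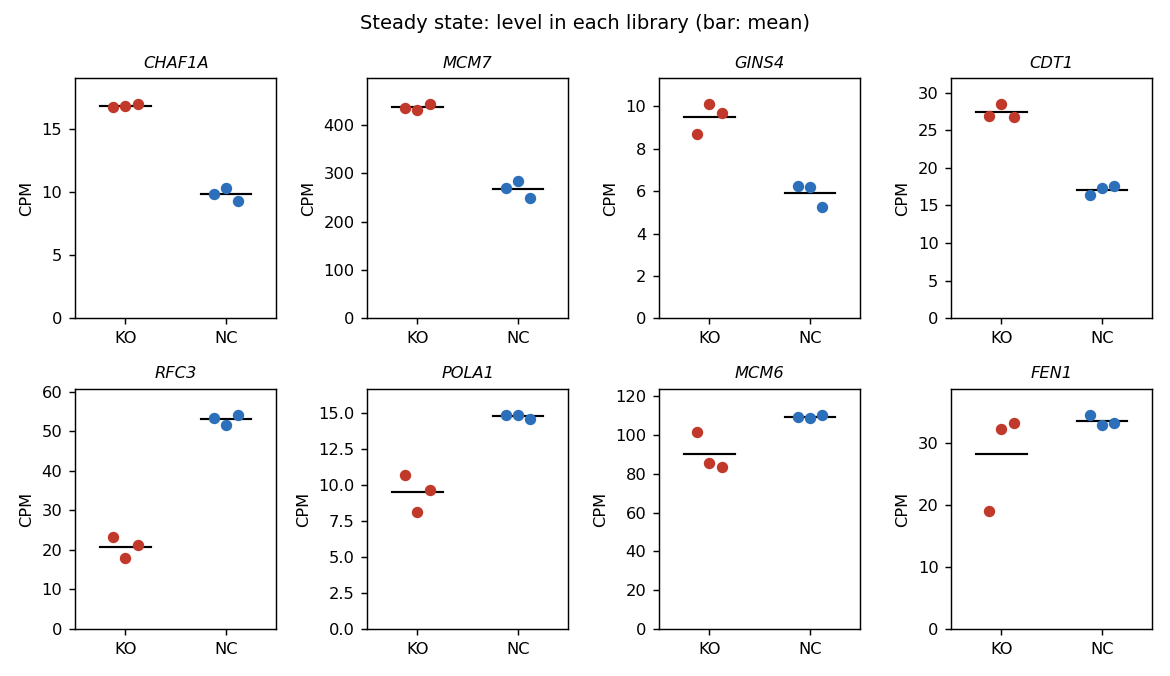
Level of 8 genes in each steady-state library, in CPM scaled by TMM on axes that start at 0, with KO left of NC; each point is a library and the line is the mean of 3. The KO libraries lie above all NC libraries in CHAF1A, MCM7, GINS4 and CDT1 and below them in RFC3, POLA1 and MCM6, and in FEN1 a single KO library (19.02 CPM) lies apart.

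KO replicates 1 and 2 differed most among replicates of a group, at 42.8 chi-square units per degree of freedom over genes, where the lowest pair was at 3.81. Without KO replicate 1, 26 of the 39 genes were called higher and 5 lower, and the share of all genes called in that fit is not given here. Across the 39 genes, which are not independent, the change with KO and transcript length had a Spearman rho of 0.14, and over all genes tested rho was -0.24. With offsets adjusted for length, 25 were called higher and 3 lower (29.9% and 22.2% of all genes tested).

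Other genes of the same processes, in lists chosen with earlier results of these data known, were called in both directions, and those named below had a mean of at least 10 CPM. The shares to set beside their counts are 24.4% higher and 26.3% lower over all genes tested. Of 35 further replication genes 10 were higher and 12 lower (median log2 change -0.08). The highest were RNASEH2A, a subunit of RNase H2, at 0.66 and POLD2, a polymerase delta subunit, at 0.63, and the lowest were TOP1, topoisomerase I, at -1.53 and CDC7, the kinase that fires origins, at -1.23. Of 17 further nucleotide genes 9 were higher and 1 lower, RRM2B at -0.995, with the pyrimidine synthesis gene CAD at 0.66 and thymidylate kinase DTYMK at 0.60. Of 21 S phase partner genes tested of 22 listed 4 were higher and 10 lower, with DNMT1, the maintenance methyltransferase, at 0.83 and LMNB1, lamin B1, at 0.48 against HELLS at -1.07 and RAD51AP1 at -0.79. Of 34 further G1/S regulators tested of 36 listed 16 were higher and 8 lower, with MYBL2 at 0.99 and cyclin D3, CCND3, at 0.77 against CDK6 at -1.70 and RBL2, a pocket protein gene, at -0.74. Of 35 G2/M genes 17 were higher and 7 lower (median 0.07), with the mitotic kinase AURKB at 1.17 and CDC25C at 0.94 against CENPF at -1.15 and the proliferation marker MKI67 at -1.14.

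In the actinomycin D set the comparison of the labels at 0 h ran mostly the other way. Of the 39 genes 8 were higher and 26 lower in the libraries labelled KO, and 5 were not called, where 35.5% of all genes tested were higher and 31.6% lower. By role, 9 of 10 licensing genes, 3 of 6 of helicase activation, 8 of 11 of polymerases and clamp, 4 of 6 of Okazaki fragments and chromatin, 1 of 3 of nucleotide supply and 1 of 3 regulators were lower. Both libraries labelled KO lay above both labelled NC in 8 genes (42.9% of all genes tested) and below in 27 (39.1%). Without NC 0 h replicate 1, 5 rather than 8 genes were called higher. The median log2 change was -0.48 over the 39 genes and 0.06 over all genes tested. These directions are relative to the counts of each library. Scaled to 70 ribosomal protein genes, 16 were higher and 16 lower (50.3% and 19.5% of all genes tested), with the median of all genes moved by 0.46. On the deposited molecule scale 22 were higher and 8 lower (62.6% and 11.3%), with the median of all genes moved by 0.86.

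The largest falls at 0 h were spread over the roles. POLA1 had 39.2 and 35.6 CPM in KO, against 147 and 159 CPM in NC (log2 change -2.03, SE 0.08, adjusted p = 5.4e-24). GINS2 (chr16:85709804-85722560, minus strand) had 23.9 and 22.6 CPM in KO, against 87.5 and 93.8 CPM in NC (-1.96, SE 0.09, adjusted p = 3.47e-23). CDT1 had 9.54 and 9.18 CPM in KO, against 32.1 and 33.7 CPM in NC (-1.81, SE 0.13, adjusted p = 4.1e-16). RFC5 (chr12:118454508-118470039, plus strand) had 35.4 and 39.9 CPM in KO, against 106 and 100.1 CPM in NC (-1.45, SE 0.08, adjusted p = 5.88e-19). In all 4 genes both libraries labelled KO were below both labelled NC, and all 4 were also lower in KO under ribosomal protein and molecule scaling.

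Of the genes that were higher at 0 h, GINS1 (chr20:25388309-25429199, plus strand) stood out with 61.1 and 65.0 CPM in KO, against 29.7 and 28.8 CPM in NC (log2 change 1.11, SE 0.09, adjusted p = 7.04e-14). ORC1 had 28.5 and 28.7 CPM in KO, against 20.08 and 20.04 CPM in NC (0.51, SE 0.11, adjusted p = 0.00015). POLE2, a polymerase epsilon subunit gene, had 13.7 and 12.3 CPM in KO, against 9.10 and 9.25 CPM in NC (0.51, SE 0.18, adjusted p = 0.0101). CHAF1B had 35.9 and 32.5 CPM in KO, against 23.2 and 27.1 CPM in NC (0.44, SE 0.13, adjusted p = 0.00253). The libraries of the labels did not overlap in these 4 genes. TYMS (0.43), RRM2 (0.30), SLBP (0.22) and PCNA (0.15) were higher by less. MCM10, GINS3, RFC4, CCNE1 and CCNE2 were not called.

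Averaged over the 5 labelled times, 33 genes were lower and 6 higher in KO, where 41.6% of all genes tested were called in each direction; the 6 were GINS1 (1.02), POLE2 (0.75), TYMS (0.47), ORC1 (0.23), CHAF1B (0.20) and RRM2 (0.15). On the molecule scale 20 were lower and 10 higher, where 26.7% of all genes tested were lower and 56.1% higher. At the single later times, higher and lower in KO were 4 and 30 genes at 2 h (33.8% and 35.3% of all genes tested), 3 and 34 at 4 h (31.9% and 38.3%), 5 and 30 at 6 h (37.4% and 34.9%) and 9 and 26 at 8 h (34.9% and 31.4%). Scaled to ribosomal protein genes, the count at 6 h turned to 21 higher and 11 lower (65% and 13.5%). Across all 10 libraries of each label, whatever the time, 17 genes had every KO library below every NC library (18.7% of all genes tested) and 2 had every KO library above, GINS1 and POLE2 (19.4%). GINS1 ranged over 50.6 to 71.9 CPM in KO, against 23.8 to 34.3 CPM in NC, and MCM7 over 164 to 254 CPM in KO and 559 to 662 CPM in NC.

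At 0 h 35.5% of all genes tested were called higher in KO and 31.6% lower, the shares to set beside the counts that follow. Of the further lists at 0 h, the replication list had 9 higher and 13 lower of 35, with CLSPN (1.30) and CDC7 (1.27) against ORC5 (-1.10) and POLD2 (-0.98). The nucleotide list had 3 higher and 13 lower of 17, with CTPS1 (0.83) and RRM2B (0.42) against the IMP dehydrogenase genes IMPDH2 (-1.44) and IMPDH1 (-1.36). The S phase partners had 12 higher and 5 lower of 22, with DTL (1.01) and NASP (0.81) against ASF1B (-0.86) and CDCA7 (-0.74). The G1/S regulators had 8 higher and 17 lower of 36, with E2F7 (1.55) and cyclin D1, CCND1 (1.38), against CDKN1C (-4.67) and CDKN2A, which was at 0 in KO. The G2/M genes had 21 higher and 7 lower of 35, with NDC80 (1.63) and CDC25B (1.49) against FOXM1 (-1.22) and PLK1 (-1.12).

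Side by side, 17 genes were called in opposite directions at steady state and at 0 h (22.8% of the 14137 genes tested in both sets), all higher in KO at steady state and lower in KO at 0 h, and 8 were called in the same direction (18.8%). The fall at 0 h of the 17 depended on the scaling: 8 of them, CDC6, ORC6, POLA2, POLE, E2F1, CHAF1A, LIG1 and UHRF1, stood higher in KO on the molecule scale, and 6 of these 8, all but CHAF1A and LIG1, also when scaled to ribosomal protein genes. The 6 with the largest opposite changes were MCM7 (0.71 at steady state, -1.40 at 0 h), GINS4 (0.69, -1.35), CDT1 (0.68, -1.81), RFC2 (0.64, -0.95), POLD1 (0.63, -1.06) and CHAF1A (0.77, -0.62), each fall relative to the library total. At 0 h MCM7 had 254 and 242 CPM in KO, against 658 and 649 CPM in NC. GINS4 had 42.2 and 35.0 CPM in KO, against 98.7 and 97.9 CPM in NC. The groups did not overlap in either gene. POLD1 had 76.5 and 78.1 CPM in KO, against 161 and 161 CPM in NC. RFC2 had 41.5 and 33.4 CPM in KO, against 70.7 and 74.0 CPM in NC, and CHAF1A had 41.1 and 42.3 CPM in KO, against 61.5 and 66.5 CPM in NC. In all of them the groups did not overlap in either set; on the molecule scale CHAF1A was higher in KO at 0 h (0.21), and the other 5 stayed lower. The genes called the same way were MCM6, RFC3 and POLA1, lower in both, and GINS1, ORC1, RRM2, TYMS and CHAF1B, higher in both. Of these, MCM6 was higher in KO at 0 h on the molecule scale (0.21). Its steady-state call was also lost in several of the fits that left out a library. The sets were processed by different routes, and the difference between the changes was not tested.

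**Figure D2:**
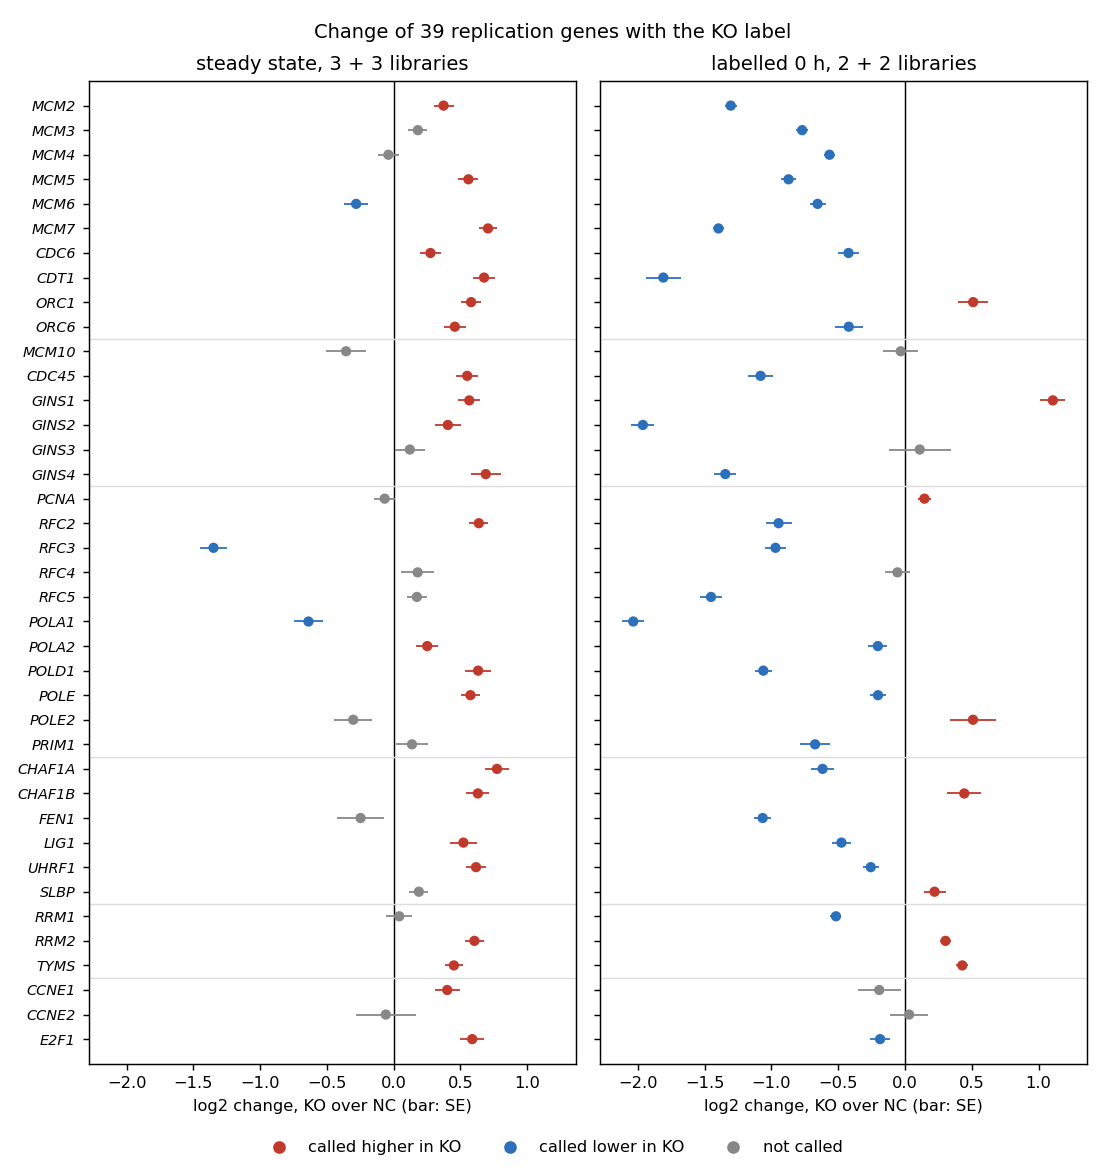
Log2 change in KO over NC of the 39 genes, in order of role, at steady state (left) and in the actinomycin D libraries labelled 0 h (right), on one x scale; points are fitted changes, bars are standard errors, red is called higher in KO, blue called lower and grey not called. Most points lie right of 0 at steady state (median 0.40) and left of 0 at 0 h (median -0.48), while RFC3 and POLA1 are left of 0 and GINS1 right of 0 in both.

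Over the labelled times the 39 transcripts did not move alike. In the libraries labelled KO 36 of the 39 genes differed between times (55.9% of all genes tested), in those labelled NC 33 did (54.7%), and for 35 the differences between times differed between the labels (55.3%). Described by a straight line over time, on counts relative to the library total, none of the 39 genes and none of all genes tested had a slope or a difference in slope that was called by edgeR. At an unadjusted p below 0.05 there were 2 of the 39 in KO (3.58% of all genes tested), 1 in NC (2.27%) and 0 for the difference (2.99%). DESeq2 called 7 genes for the slope in KO, 2 in NC and 4 for the difference over all genes, none of them among the 39. Rises and falls that do not follow a line count as spread in this fit, so the lack of calls does not show equal slopes. For CDT1 the KO minus NC difference in slope was 0.20 log2 units per hour (SE 0.16).

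The widest swings were in CDT1, GINS3, CCNE1, FEN1, MCM10 and CCNE2. CDT1 had 9.54 and 9.18 CPM at 0 h, 6.26 and 7.52 CPM at 2 h, 22.6 and 17.8 CPM at 4 h, 27.5 and 33.1 CPM at 6 h and 7.62 and 7.22 CPM at 8 h in KO. In NC CDT1 had 32.1 and 33.7 CPM at 0 h, 64.6 and 75.5 CPM at 2 h, 123 and 121 CPM at 4 h, 46.1 and 43.1 CPM at 6 h and 26.7 and 31.1 CPM at 8 h. On this scale CDT1 was thus highest at 6 h in KO and at 4 h in NC, and the libraries of those times did not overlap with those of any other time. MCM10 (chr10:13203558-13253110, plus strand) had 19.9 and 23.4 CPM at 0 h, 14.1 and 19.98 CPM at 2 h, 32.7 and 30.6 CPM at 4 h, 39.8 and 38.4 CPM at 6 h and 16.1 and 18.0 CPM at 8 h in KO. In NC MCM10 had 21.7 and 22.4 CPM at 0 h, 45.6 and 47.8 CPM at 2 h, 59.1 and 59.9 CPM at 4 h, 36.7 and 34.1 CPM at 6 h and 21.1 and 16.1 CPM at 8 h. MCM10 peaked at the same times as CDT1. Such extremes were common to the libraries. In KO 9 of the 39 genes were highest and 23 lowest at 6 h (30.3% and 39.7% of all genes). In NC 19 were highest and 11 lowest at 4 h (37% and 34.7%). FEN1 (chr11:61560383-61564710, plus strand) had 63.6 and 68.6 CPM at 0 h, 47.6 and 46.5 CPM at 2 h, 92.3 and 83.5 CPM at 4 h, 82.0 and 88.7 CPM at 6 h and 31.8 and 36.2 CPM at 8 h in KO. In NC FEN1 had 141 and 136 CPM at 0 h, 212 and 224 CPM at 2 h, 269 and 258 CPM at 4 h, 186 and 184 CPM at 6 h and 111 and 111 CPM at 8 h. Its NC peak was again at 4 h, and in KO its 4 h and 6 h libraries were above those of the other times. GINS3 (chr16:58426375-58440051, plus strand) had 5.34 and 6.44 CPM at 0 h, 2.76 and 4.77 CPM at 2 h, 8.87 and 10.01 CPM at 4 h, 12.5 and 14.0 CPM at 6 h and 3.81 and 3.18 CPM at 8 h in KO. In NC GINS3 had 6.05 and 4.83 CPM at 0 h, 10.6 and 12.1 CPM at 2 h, 17.6 and 22.2 CPM at 4 h, 7.92 and 10.1 CPM at 6 h and 5.22 and 6.43 CPM at 8 h. GINS3 followed the same order, with 6 h above 4 h in KO. CCNE1 (chr19:30302898-30315219, plus strand) had 13.3 and 11.9 CPM at 0 h, 10.9 and 8.46 CPM at 2 h, 17.2 and 20.02 CPM at 4 h, 22.3 and 24.3 CPM at 6 h and 7.83 and 10.7 CPM at 8 h in KO. In NC CCNE1 had 13.8 and 15.0 CPM at 0 h, 28.3 and 27.8 CPM at 2 h, 27.5 and 26.5 CPM at 4 h, 16.9 and 18.1 CPM at 6 h and 10.7 and 8.64 CPM at 8 h. The 2 h and 4 h libraries were the highest of NC. CCNE2 showed no call over time in KO (adjusted p = 0.181), where its 10 libraries ranged over 12.98 to 18.52 CPM. In NC CCNE2 had 15.2 and 18.0 CPM at 0 h, 25.9 and 27.8 CPM at 2 h, 38.2 and 39.7 CPM at 4 h, 20.2 and 22.9 CPM at 6 h and 10.6 and 10.2 CPM at 8 h, with a peak at 4 h. The spread over the 5 times, as the log2 distance from lowest to highest fitted mean, was 2.13 in KO and 2.08 in NC for CDT1, and 1.37 in KO and 1.25 in NC for FEN1.

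**Figure D3:**
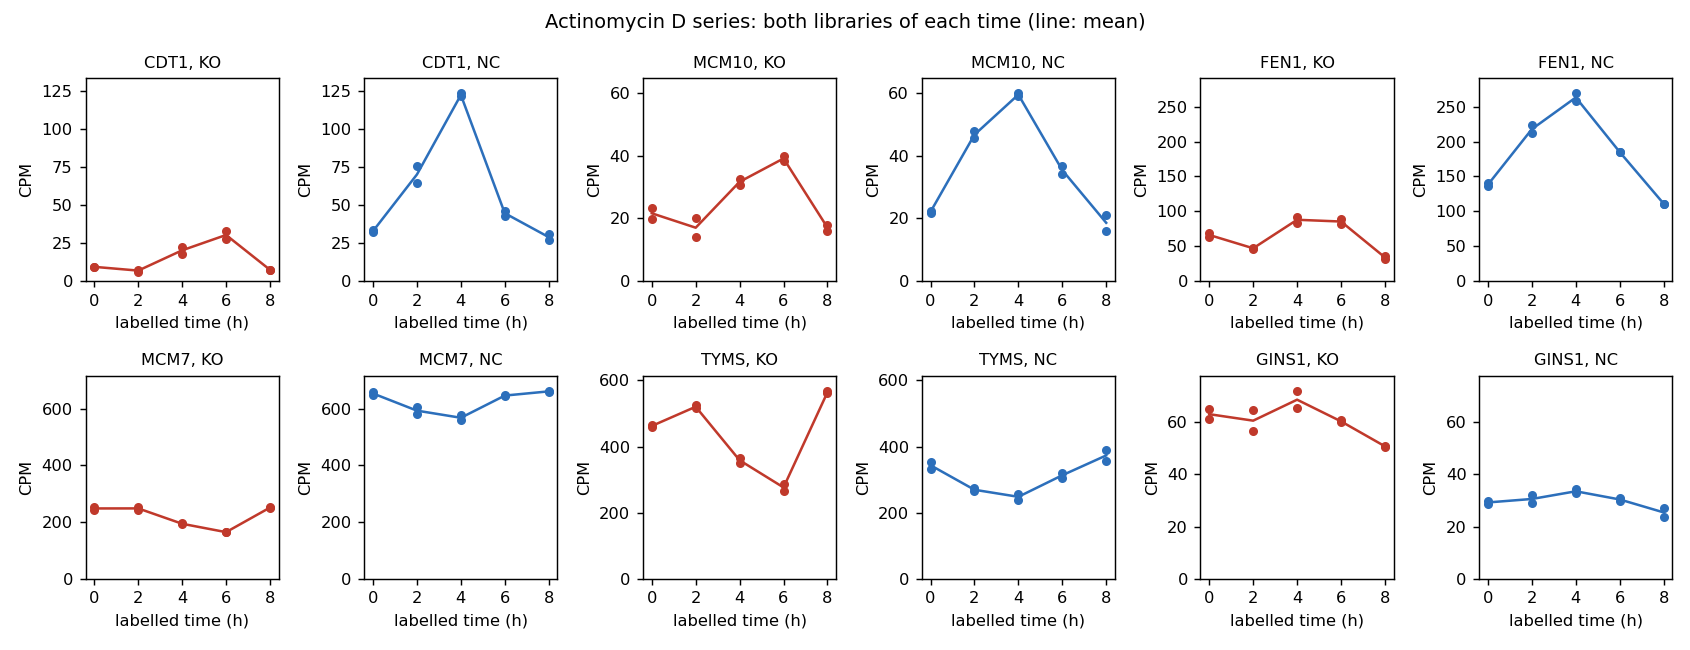
CPM of 6 genes at the 5 labelled times under actinomycin D, each gene with KO left of NC on one y scale that starts at 0; points are the 2 libraries of a time and lines join their means. CDT1, MCM10 and FEN1 are highest at 4 h in NC and at 4 or 6 h in KO, MCM7 and TYMS are lowest at those times, and GINS1 is flatter and higher in KO at every time.

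Against their own 0 h libraries, 9 genes were higher and 23 lower at 6 h in KO (19.7% and 28% of all genes tested), and 17 were higher and 13 lower at 4 h in NC (27.1% and 24.4%). Both comparisons turned with the scaling. Scaled to ribosomal protein genes, 25 were higher and 0 lower at 6 h in KO (52.1% and 0.564% of all genes tested), and 38 higher and 0 lower at 4 h in NC (55.6% and 1.16%). On the molecule scale 4 were higher and 27 lower at 6 h in KO (11.2% and 50.2%) and 22 higher and 0 lower at 4 h in NC (38.1% and 7.27%). With the TMM scaling, the 9 genes MCM10, CDC6, CDT1, GINS3, RFC4, CCNE1, CHAF1A, FEN1 and SLBP were higher in both comparisons (16.5% of all genes tested), and 13 genes were lower in both, namely MCM2, MCM5, MCM6, MCM7, CDC45, GINS4, RFC5, POLA1, POLD1, POLE, RRM1, TYMS and LIG1 (19.8%). These groups also depended on the scaling. Scaled to ribosomal protein genes, 24 were higher and 0 lower in both comparisons (43.3% and 0.096% of all genes tested), on the molecule scale 4 and 0 (10.8% and 6.97%), and scaled to library size alone 11 and 4 (22.5% and 10.5%). ORC6, PCNA, POLA2 and RRM2 were higher at 4 h in NC and lower at 6 h in KO (1.07%), and none of the 39 did the reverse (0.147%). Without KO 0 h replicate 1, 6 rather than 9 genes were higher in both.

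Genes of one role fell on both sides. The licensing factors CDC6 and CDT1 were among the 9. Of the helicase subunits they load, MCM2, MCM5, MCM6 and MCM7 were among the 13, and MCM3 and MCM4 were in neither group. TYMS, lower in both, had 467 and 458 CPM at 0 h, 526 and 516 CPM at 2 h, 351 and 366 CPM at 4 h, 266 and 287 CPM at 6 h and 561 and 568 CPM at 8 h in KO. In NC TYMS had 332 and 355 CPM at 0 h, 274 and 265 CPM at 2 h, 257 and 239 CPM at 4 h, 306 and 320.5 CPM at 6 h and 356 and 390.1 CPM at 8 h. The 6 h libraries of KO and the 4 h libraries of NC were the lowest of their labels, and the 8 h libraries the highest. MCM7 had 254 and 242 CPM at 0 h, 244 and 253 CPM at 2 h, 192 and 196 CPM at 4 h, 164 and 164 CPM at 6 h and 250.1 and 252 CPM at 8 h in KO. In NC MCM7 had 658 and 649 CPM at 0 h, 581 and 605 CPM at 2 h, 576 and 559 CPM at 4 h, 643 and 649 CPM at 6 h and 662 and 660.1 CPM at 8 h. MCM7 was lowest at the same times as TYMS on this scale. Across the 39 genes the changes at 6 h in KO and at 4 h in NC had a Pearson r of 0.88 and a Spearman rho of 0.79 (n = 39 genes, which are not independent). Each change was taken from its own 0 h libraries, and over all genes tested r was 0.50. This pairing of times, at 0.878, was not the closest, as r was 0.893 between 6 h in KO and 2 h in NC. It was little above 0.871 between 4 h in KO and 2 h in NC and 0.848 between 4 h in both.

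**Figure D4:**
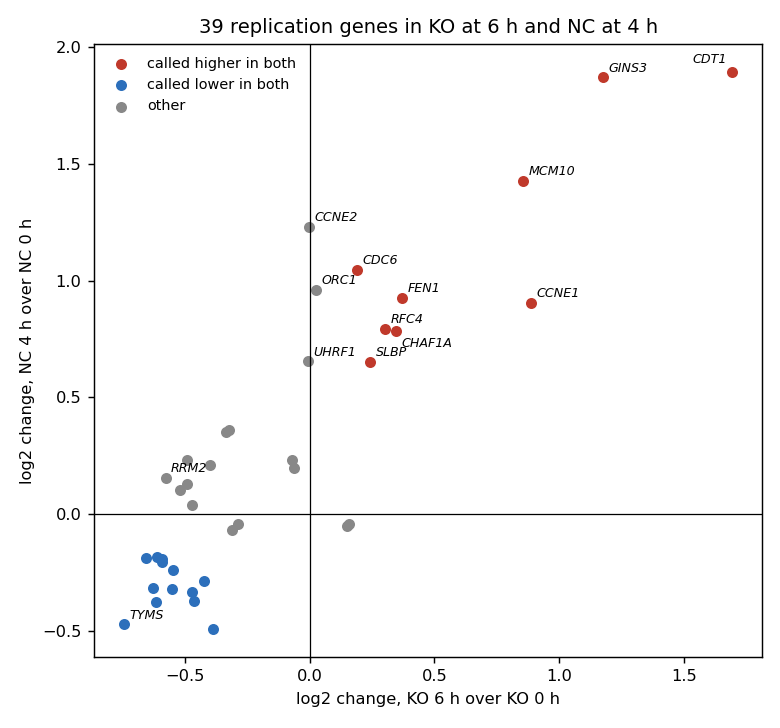
Log2 change of each of the 39 genes at 6 h over 0 h in KO (x axis) and at 4 h over 0 h in NC (y axis), on counts scaled by TMM; red genes were called higher in both, blue lower in both, grey the rest. CDT1 (1.69, 1.90), GINS3 and MCM10 lie high on both axes, TYMS (-0.74, -0.47) lies farthest left, and CCNE2 and ORC1 rose at 4 h in NC but stood near 0 at 6 h in KO.

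At the other times fewer genes were called. In KO 4 were higher and 5 lower at 2 h (4.87% and 4.29% of all genes tested), and 9 higher and 20 lower at 4 h (12% and 15.7%). At 8 h KO had 8 higher and 12 lower (11.3% and 10.7%), with SLBP (-1.03) and FEN1 (-0.96) the lowest and E2F1 (0.44) the highest at 8 h. In NC 13 were higher and 10 lower at 2 h (16.9% and 14.9%), and 8 higher and 0 lower at 6 h (3.12% and 1.3%). At 8 h NC had 0 higher and 9 lower (1.61% and 1.59%), with CCNE2 (-0.67) and CCNE1 (-0.57) the lowest. These counts moved when single libraries were left out, and the share of all genes called in those fits is not given here. In KO, the number higher at 2 h was 1 without 0 h replicate 2, 0 without 2 h replicate 1 and 1 without 2 h replicate 2, and the number lower was 3 without 0 h replicate 1 and 2 without 0 h replicate 2. At 4 h in KO, 4 were higher without 0 h replicate 1 and 3 without 4 h replicate 2, and 13 were lower without 0 h replicate 2. At 8 h in KO, 4 were higher without 0 h replicate 2, 5 without 8 h replicate 1 and 4 without 8 h replicate 2, and 7 were lower without 0 h replicate 2 and 7 without 8 h replicate 1. In NC, 5 were lower at 2 h without 0 h replicate 2, and at 6 h 3 were higher without 0 h replicate 1 and 4 without any one of the other 3 libraries involved. At 8 h in NC, 2 were lower without 0 h replicate 1, 1 without 0 h replicate 2 and 1 without 8 h replicate 2, and 1 was higher without 8 h replicate 1. At an unadjusted p below 0.05, 12 of the 39 differed at 6 h and 20 at 8 h in NC (16.8% and 15.1% of all genes tested), and DESeq2 called 1 lower at 6 h and 1 higher at 8 h. SLBP had 30.6 and 29.9 CPM at 8 h in KO, against 58.3 and 65.7 CPM at 0 h, so the libraries of these times did not overlap.

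**Figure D5:**
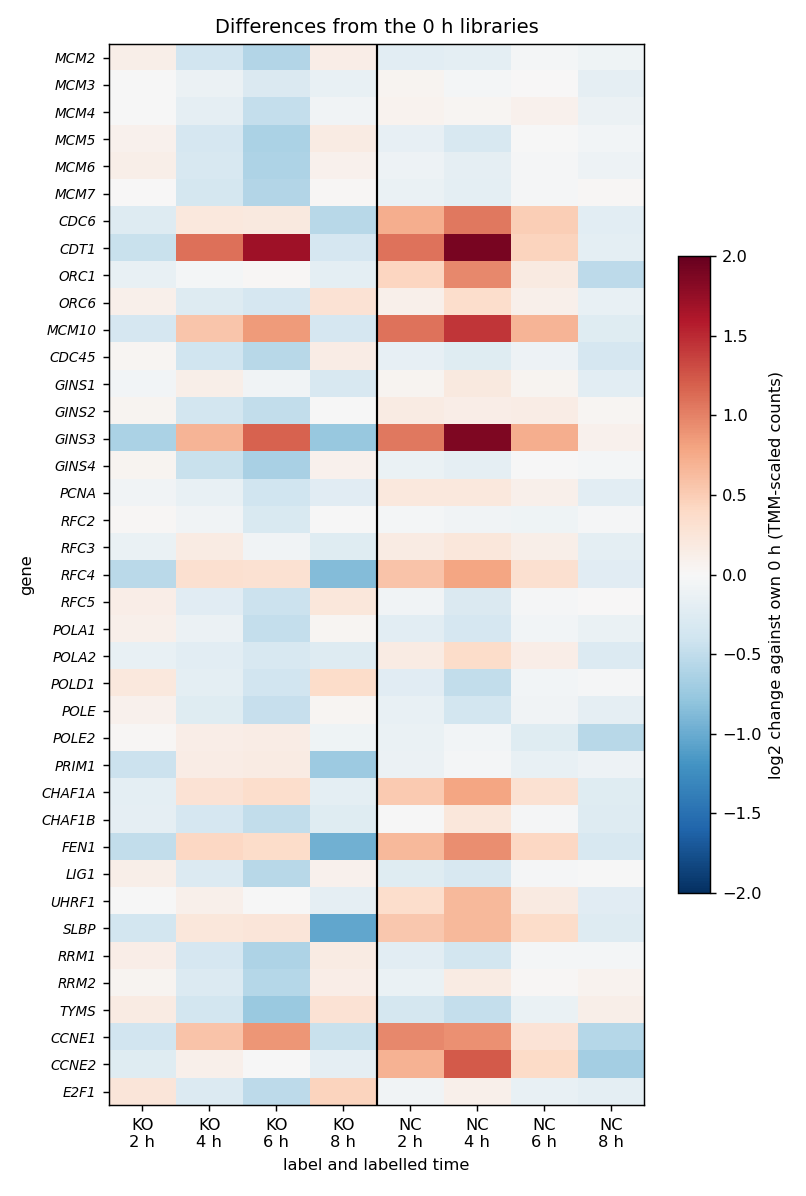
Log2 change of the 39 genes, in order of role, at 2, 4, 6 and 8 h against the 0 h libraries of the same label, KO left of NC; red is higher and blue lower on a scale from -2 to 2. CDT1, GINS3, MCM10 and CCNE1 are red at 4 and 6 h in KO and at 2 and 4 h in NC, and MCM2, MCM5, MCM6 and MCM7 are pale blue at 6 h in KO and at 4 h in NC.

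A line over time was also fitted on the deposited molecule scale, the log2 of molecule numbers that the authors gave per gene. The slopes of the 39 genes ran from -0.249 to -0.0757 log2 units per hour in KO. In NC they ran from -0.246 to -0.144. The course was not a steady decline. At 4 h in NC 22 genes were higher than at 0 h and 0 lower on this scale (38.1% and 7.27% of all genes tested). The slope over the 5 times was called lower for 29 of the 39 genes in KO (63.1% of genes tested on that scale) and for 31 in NC (57.4%). The median slope was -0.20 log2 units per hour in KO and -0.18 in NC over the 39 genes, against -0.17 in KO and -0.15 in NC over all 13988 genes. The slope was -0.21 (SE 0.03) in KO and -0.18 (SE 0.03) in NC for MCM2, and -0.08 (SE 0.14) in KO and -0.21 (SE 0.14) in NC for CDT1. No gene had a called difference of slopes, where 0 of the 39 genes and 329 of all genes had an unadjusted p below 0.05. The differences of the 39 ran from -0.05 to 0.14 log2 units per hour. As the course did not follow a line, the lack of calls does not show equal slopes.

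E2F factors are known to act at promoters of many replication genes, and the promoters of the groups called higher or lower at both 6 h in KO and 4 h in NC with TMM scaling are shown for that reason. RefSeq promoter sequences (GRCh38.p14, first listed start of each gene, 250 bases before it) matched 35 of the 39 genes; MCM4, MCM5, GINS4 and CCNE2 were not matched. The letters searched were TTTCGCGC, TTTGGCGC, TTTCCCGC and TTTGCCGC on both strands, counting overlapping matches. They occurred before the start of 14 of the 35 genes (40.0%) and of 2.8% of all 27305 promoters of that length. They occurred in 1 of the 9 promoters of the genes higher at both 6 h in KO and 4 h in NC, CDT1, and in 6 of the 11 matched promoters of the genes lower in both, MCM6, MCM7, POLA1, POLE, TYMS and LIG1. Only these exact letters were searched, so the lack of a match does not show the lack of an E2F site. The difference between the groups was not tested. The letters CCAAT occurred in 20 of the 35 (57.1%) and in 33.0% of all promoters, and TTTGAA or TTCGAA, a form of the cell-cycle homology region, in 2 of the 35 (5.7%) and 14.6% of all, against 13 of 28 G2/M promoters (46.4%). The 160 bases before the start follow for CDT1, for MCM6, POLE and TYMS of the lower group and for E2F1 itself, with the searched letters in capitals; a match is a description of letters only.
CDT1, chr16:88803629-88803788, plus strand: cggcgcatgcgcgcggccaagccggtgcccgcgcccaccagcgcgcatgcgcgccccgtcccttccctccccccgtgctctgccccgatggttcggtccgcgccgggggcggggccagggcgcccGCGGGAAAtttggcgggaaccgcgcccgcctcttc
MCM6, chr2:135876444-135876603, minus strand: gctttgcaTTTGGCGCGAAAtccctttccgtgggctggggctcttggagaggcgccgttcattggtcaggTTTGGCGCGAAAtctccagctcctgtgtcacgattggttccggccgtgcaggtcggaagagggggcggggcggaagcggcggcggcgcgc
POLE, chr12:132687343-132687502, minus strand: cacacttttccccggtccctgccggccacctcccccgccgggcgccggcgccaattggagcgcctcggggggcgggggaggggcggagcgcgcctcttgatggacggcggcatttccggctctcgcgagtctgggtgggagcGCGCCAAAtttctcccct
TYMS, chr18:657493-657652, plus strand: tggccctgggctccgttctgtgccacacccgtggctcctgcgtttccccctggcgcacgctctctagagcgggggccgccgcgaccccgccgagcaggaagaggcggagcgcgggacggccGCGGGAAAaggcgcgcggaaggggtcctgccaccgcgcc
E2F1, chr20:33686386-33686545, minus strand: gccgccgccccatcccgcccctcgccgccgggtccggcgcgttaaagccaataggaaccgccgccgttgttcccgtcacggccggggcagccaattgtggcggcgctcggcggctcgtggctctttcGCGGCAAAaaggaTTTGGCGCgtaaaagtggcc
In MCM6 the capitals are 2 runs, each of a match on one strand that overlaps a match on the other, 4 matches in all, whereas CDT1, POLE and TYMS have 1 each and E2F1 has 2.

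Some counts may hold reads of other genes. In the deposited exons TYMS shares 967 bases with ENOSF1 and 106 with TYMSOS, both on the other strand, CCNE2 shares 1522 bases with INTS8, PCNA 373 with PCNA-AS1, GINS4 114 with LOC102723729 and GINS2 3 with GSE1. No source used here gives the use of strand in counting, so the values of TYMS, PCNA and CCNE2 are less certain. ENOSF1 had up to 7718 counts in an actinomycin D library, where TYMS had at least 5459, and INTS8 up to 2255, where CCNE2 had at least 194. Pseudogene copies such as PCNAP1 and FEN1P1 had at most 18 counts in any steady-state library, where the lowest parent gene had 663.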

How the data were processed

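RNA sequencing libraries of PANC-1 cells were analysed from the deposited tables. For the steady-state set the authors deposited expected counts and TPM per gene, per the file headers, in the layout of RSEM; expected counts were rounded to whole numbers, and 45 pseudoautosomal copies were merged with their genes. For the actinomycin D set the authors deposited counts, RPKM and the log2 of molecule numbers per gene, per the file headers; no source used here says how molecules were scaled. STAR, RSEM, Bowtie2, deepTools and hg19 are named, without roles, in the submitters' processing notes. RNA was extracted with TRIzol and libraries were made with a Hieff kit, per the labels' protocols. The use of strand in counting was not stated.

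Genes were filtered with filterByExpr (minimum count 10) and scaled by TMM. The edgeR 4.0.16 quasi-likelihood F test (R 4.3.3, robust) was run over all genes tested, with Benjamini-Hochberg adjustment at 0.05. Every adjusted p in the text comes from it, except those on the molecule scale, which come from limma 3.58.1. The steady-state fit used 6 libraries. The actinomycin D fit used all 20 libraries, with a mean for each of the 10 groups of label and time, and a further fit used a line over hours for each label. DESeq2 1.42.0, other scalings (to 70 ribosomal protein genes, to library size, to molecules), no filter, a replicate block, length-adjusted offsets and leaving out each library were tried as alternatives. The tests were also run on simulated counts with known changes in a small part of the genes and a set spread. Those counts do not show how the tests behave where many genes change, as here.

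The 39 genes and the further lists were chosen with earlier results of these data known. All 39 are accounted for in each comparison. Values in every library are given for the 4 largest called rises and falls at steady state (3 fell) and at 0 h, for 6 genes called in opposite directions, by the smaller of the 2 absolute changes, and for the 4 called genes of each label with the widest spread over time; MCM10, FEN1, RFC2, POLD1, CCNE2, TYMS, MCM7 and SLBP were also given where a result turned on them, after their values were seen. Over genes, replicate libraries of a group differed by 3.81 to 42.8 chi-square units per degree of freedom at steady state and by 3.90 to 5.30 in the actinomycin D set.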

Additional observations from a re-analysis of the deposited data

Results flagged for a closer look

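For 35 of the 39 genes the differences between labelled times differed between the labels KO and NC (edgeR quasi-likelihood test of the interaction). They did so for 55.3% of all genes tested. As the log2 distance between the lowest and the highest KO minus NC difference of the time changes, this was widest for CDT1 at 2.79. GINS3 at 2.14, CCNE1 at 1.95, CCNE2 at 1.62, MCM10 at 1.60, ORC1 at 1.33 and FEN1 at 1.15 followed. The label and any difference in cell source cannot be told apart in that set.

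In 20 of the 39 genes every KO library lay on one side of every NC library at steady state and on the other side at 0 h in the actinomycin D set, as it did in 29.8% of all genes tested in both sets. On the molecule scale 10 of these 20 stood higher in KO at 0 h, namely MCM3, CDC6, ORC6, POLA2, POLE, CCNE1, E2F1, CHAF1A, LIG1 and UHRF1, and 6 did so scaled to ribosomal protein genes. The log2 change of KO over NC was 0.707 at steady state and -1.40 at 0 h for MCM7, 0.69 and -1.35 for GINS4, 0.677 and -1.81 for CDT1, 0.638 and -0.947 for RFC2, 0.632 and -1.06 for POLD1, and 0.774 and -0.618 for CHAF1A. The difference between the sets was not tested.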

How the results depend on the processing

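Directions at steady state held under every alternative run for the genes called there, and 652 of 726 alternative counts were within 1.5 times the reported one. Scaling moved the actinomycin D counts most. At 0 h (KO over NC) 22 genes were higher and 8 lower on the molecule scale (62.6% and 11.3% of all genes tested). Scaled to ribosomal protein genes, 16 and 16 were (50.3% and 19.5%). Averaged over the 5 times, 10 were higher and 20 lower on the molecule scale (56.1% and 26.7%). With ribosomal protein scaling 10 were higher and 24 lower (55.5% and 28.3%). Slopes called on the molecule scale were 29 in KO and 31 in NC (63.1% and 57.4% of genes tested on that scale), against 0 on counts. Turned to higher at 0 h on the molecule scale were MCM3 (0.10), MCM4 (0.32), MCM6 (0.21), MCM10 (0.80), CDC6 (0.42), ORC6 (0.43), RFC4 (0.84), POLA2 (0.67), POLE (0.67), PRIM1 (0.16), RRM1 (0.39), CCNE1 (0.64), E2F1 (0.70), CHAF1A (0.21), LIG1 (0.37) and UHRF1 (0.62), and FEN1 at 6 h in KO turned to -0.04036. Scaled to ribosomal protein genes, MCM10 (0.43), CDC6 (0.0409), ORC6 (0.0428), RFC4 (0.41), POLA2 (0.26), POLE (0.26), E2F1 (0.28) and UHRF1 (0.21) turned to higher at 0 h, and CCNE2 at 6 h in KO was at 0.65. The cause of these turns was not tested beyond the scaling itself.

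The counts against their own 0 h follow, each with the share of all genes in brackets. On the molecule scale 0 were higher and 39 lower at 2 h in KO (0.1% and 71.3%). At 8 h in KO 0 were higher and 39 lower again (0.0143% and 91.6%). There 1 was higher at 4 h (3.65%) and 4 at 6 h (11.2%) in KO. In NC 0 were lower at 2 h (0.658%) and at 4 h (7.27%). At 6 h in NC 0 were higher and 27 lower (0.307% and 48.9%), and at 8 h 39 were lower (83.9%). Scaled to ribosomal protein genes, KO had 0 higher and 16 lower at 2 h (0.553% and 10.9%). At 4 h it had 20 and 0 (35.2% and 0.344%) and at 6 h 25 and 0 (52.1% and 0.564%). At 8 h it had 1 and 22 (1.73% and 25.1%). NC had 31 and 0 at 2 h (37.9% and 0.593%) and 38 and 0 at 4 h (55.6% and 1.16%). NC also had 15 higher at 6 h (8.81%) and 24 lower at 8 h (9.03%). Scaled to library size alone, KO had 0 higher at 2 h (1.85%) and 9 lower at 4 h (6.6%). It had 15 lower at 6 h (14.2%) and 3 higher at 8 h (6.28%). NC had 1 lower at 2 h (7.09%) and 5 lower at 4 h (16.9%) with that scaling. DESeq2 in NC gave 1 lower at 6 h (5.72%), and 1 higher and 14 lower at 8 h (4.32% and 2.69%). Its size factors in edgeR gave 1 lower at 6 h in NC (3.25%). With no count filter 5 were lower at steady state (29.5%). KO then had 1 higher at 2 h (3.56%), 13 lower at 4 h (10.5%) and 5 higher at 8 h (10.5%). NC had 1 lower at 6 h (2.93%) without the filter. The cause was not tested.

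With the replicate number as a block, 23 genes were higher and 5 lower in KO at steady state (23.5% and 27% of all genes). At 0 h 8 were higher and 26 lower in KO (35.3% and 31.5%). Same-numbered libraries did not deviate together (r from -0.111 to 0.0868 over 3 pairs at steady state and from -0.0403 to 0.0342 over 90 pairs in the actinomycin D set). No pairing by number was thus detected in the counts, which does not show how the libraries were made.

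Leaving out each library in turn gave 21 to 26 genes higher and 2 to 5 lower at steady state, 5 to 8 higher and 23 to 26 lower at 0 h, and 6 higher and 33 lower in each case over the 5 times. Without NC 0 h replicate 1, 5 were higher at 0 h. The time tests called 34 to 36 genes in KO, 30 to 34 in NC and 34 to 35 between labels, and slopes 0 to 0. Against 0 h, KO gave 0 to 4 higher and 2 to 5 lower at 2 h, 3 to 9 and 13 to 20 at 4 h, 6 to 9 and 22 to 23 at 6 h, and 4 to 8 and 7 to 14 at 8 h. NC gave 13 to 14 and 5 to 10 at 2 h, 15 to 17 and 10 to 13 at 4 h, 3 to 8 and 0 to 0 at 6 h, and 0 to 1 and 1 to 9 at 8 h. A lone library of a group was assumed to vary like the other groups.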
